A study of Arabidopsis thaliana with 6 samples.

Results

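Of 33341 Arabidopsis thaliana genes counted in seedlings, 10 are described here because almost all of their reads came from libraries of 1 genotype. They were chosen from the authors' counts of the same libraries: 8 were read almost only in wild-type libraries and 2 almost only in the pp7l-1-labelled libraries. Their counts and ratios are therefore a description and carry no test, while the loci beside them and their family relatives, which were chosen by position and by family, were tested. All 10 passed the filter on low counts, which each did through the genotype in which it was high.

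The series asks how gene expression differs between the wild type and pp7l-1, a mutant of PROTEIN PHOSPHATASE 7-LIKE (PP7L), a gene named for its likeness to the plant phosphatase PP7 and linked by the series title to chloroplast development. Each genotype had 3 libraries of total RNA from seedlings 4 days old, raised at 22 °C on agar with 1% sucrose under long days, and no other treatment or allele is given. The wild type is named Col in the labels. The lesion of pp7l-1, the number of seedlings pooled and whether replicates came from separate cultures are not stated, so the p-values below cover no more than the spread among these 6 libraries. PP7L itself (AT5G10900) had counts of 24, 22 and 21 in wild-type libraries and of 280, 247 and 315 in the pp7l-1-labelled libraries. Its read level was thus higher, not lower, in the pp7l-1-labelled libraries, by 3.52 ± 0.22 on the log2 scale (edgeR, adjusted p = 1.39e-07). Counts per gene do not show which part of PP7L the reads cover. The genotype of these libraries rests on their labels alone.

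The 10 genes belong to several functional classes. FAP3 encodes a fatty acid binding protein of the plastid stroma with the fold of chalcone isomerase, the enzyme of flavonoid synthesis. Small nucleolar RNAs (snoRNAs) of the C/D type, whose boxes both snoRNA genes of the set carry, guide ribose methylation of ribosomal RNA and carry the short sequence boxes C and D near their ends. MPC encodes only the C-terminal domain of a poly(A)-binding protein. It is an imprinted gene, expressed from the maternal allele in endosperm and silenced through the DNA methyltransferase MET1, per the annotation.

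The genes lay on 4 of the 5 nuclear chromosomes, with 3 on chromosome 1, 1 on chromosome 2, 4 on chromosome 3 and 2 on chromosome 5. Among them, 2 pairs were neighbours. FAP3 (AT1G53520, chromosome 1, 19976386 to 19978048, minus strand, 5 exons) and AT1G53530 (chromosome 1, 19978101 to 19980125, plus strand, 4 exons) faced away from each other, with 52 bases between their annotated starts. The stretch between these starts is shown because it is all the sequence upstream of both genes that neither covers (chr1:19978049-19978100, TAIR10.1, plus strand, from the start of FAP3 to the start of AT1G53530).
FAP3 to AT1G53530: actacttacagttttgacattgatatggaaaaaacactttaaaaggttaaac

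The other neighbours were the snoRNA genes AT3G50825 (chr3:18893404-18893484) and AT3G08165 (chr3:18893230-18893310). Both are 81 bases long and lie on the minus strand of TAIR10.1, in that order along the strand, with 93 bases between them. AT3G08165 carries the annotation name AtsnoR7-2. Their sequences are shown beside the snoRNA gene most similar to AT3G50825 from which any read was counted, AT5G66562 on chromosome 5 (chr5:26567370-26567453, plus strand), because the counts of the 3 can then be read against their likeness. Capitals mark box C (TGATGA) and box D (CTGA), which were found in each.
AT3G08165: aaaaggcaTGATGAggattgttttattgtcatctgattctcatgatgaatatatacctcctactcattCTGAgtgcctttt
AT3G50825: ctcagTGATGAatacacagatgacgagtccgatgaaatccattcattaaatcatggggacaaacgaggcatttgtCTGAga
AT5G66562: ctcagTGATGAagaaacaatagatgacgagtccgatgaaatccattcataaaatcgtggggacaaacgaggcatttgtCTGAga

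The 254 bases before AT3G50825, up to the end of the next gene upstream, are shown because they are all that separates the snoRNAs from that gene, which is read on the same strand (chr3:18893485-18893738, TAIR10.1, minus strand, read towards the snoRNA). Capitals mark a telobox (AAACCCTA), which began 222 bases before AT3G50825, and a TATA motif (TATAAA), which began 193 bases before it.
upstream of AT3G50825: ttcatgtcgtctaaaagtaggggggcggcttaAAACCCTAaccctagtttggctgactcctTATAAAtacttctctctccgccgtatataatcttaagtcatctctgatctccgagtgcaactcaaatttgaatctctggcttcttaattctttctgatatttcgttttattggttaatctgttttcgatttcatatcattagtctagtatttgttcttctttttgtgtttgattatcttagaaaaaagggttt

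Libraries held between 11269557 and 16744328 counts, and 24123 to 24984 genes had at least 1 read in a library. The nuclear genes annotated as ribosomal RNA held 7.56% of the counts in pp7l-1 replicate 1 and at most 0.0151% in any other library, so that library stood apart. In the pp7l-1-labelled libraries, seed storage markers were also higher and most tested root markers lower, as given below. Since seedlings were measured whole, fewer cells of a type and less RNA per cell cannot be told apart.

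Taken over all 10 genes, the genotype in which a gene was high gave 1336 reads and the other genotype 14. Of the 30 library counts in the lower genotype, 20 were 0. Libraries of the 2 genotypes did not overlap in scaled level for any of the 10, and 38.1% of all 18115 tested genes also had levels that did not overlap. The 8 genes read in wild-type libraries gave 4 reads in pp7l-1 replicate 1, 2 in replicate 2 and 4 in replicate 3, so no library labelled pp7l-1 held most of the remaining reads.

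**Figure D1:**
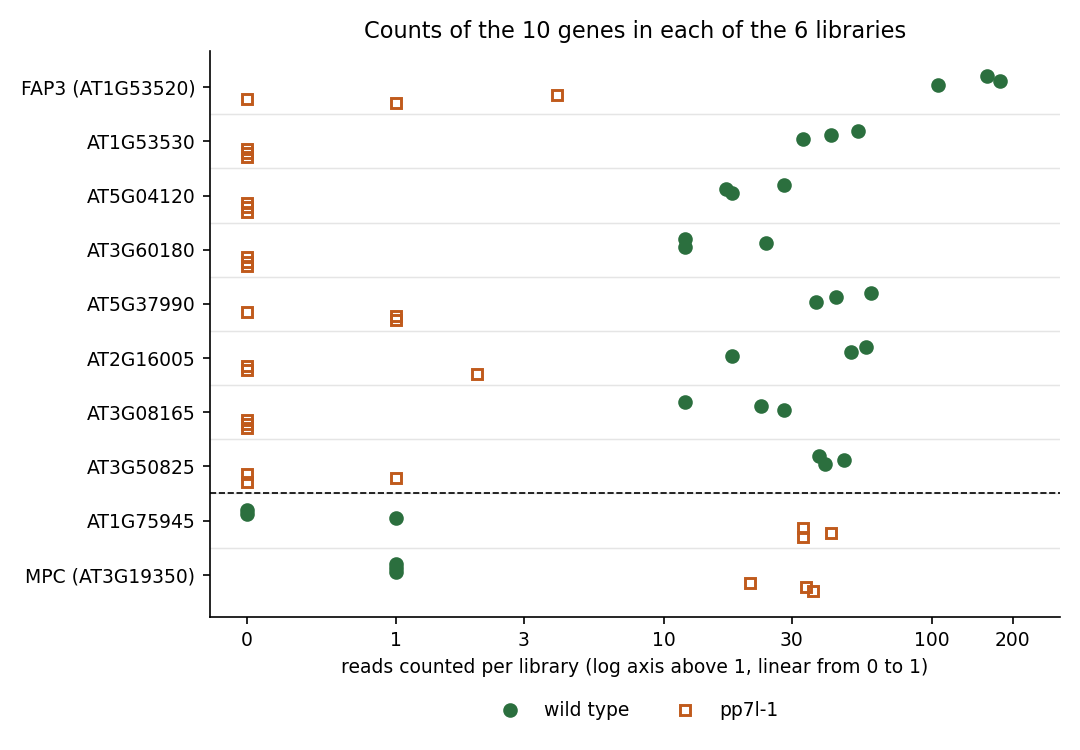
Reads counted for each of the 10 genes (vertical axis) in each of the 6 libraries, on an axis that is logarithmic above 1 and linear from 0 to 1. Filled circles are wild-type libraries and open squares libraries labelled pp7l-1; above the dashed line the circles lie between 12 and 179 and the squares between 0 and 4, and below it the order is turned round.

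FAP3 had the most reads of the 10. Its counts were 161, 179 and 105 in wild-type libraries and 4, 0 and 1 in the pp7l-1-labelled libraries. In counts per 1000000 of the scaled library (CPM) this was 11.4, 11.5 and 9.74 against 0.328, 0 and 0.0556, or 10.9 ± 0.990 (SD, n = 3) against 0.128 ± 0.175. The wild-type libraries lay close together, and 4 of the 5 remaining reads were in pp7l-1 replicate 1, the library with the high share of ribosomal RNA. The pooled level was 98.0 times higher in wild-type libraries, with a 95% counting interval of 41.7 to 303. Without pp7l-1 replicate 1 the ratio was 355, and without replicate 2 it was 65.3.

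AT1G53530, on the other side of the 52 bases, encodes a peptidase of the S24/S26 family, which holds signal peptidases and the inner membrane peptidases of organelles. It had counts of 53, 42 and 33 in wild-type libraries and a count of 0 in each library labelled pp7l-1. A count of 0 over a group allows up to 3 reads. With the wild-type reads taken as exact, the level of AT1G53530 was thus at least 47.0-fold lower in the pp7l-1-labelled libraries. The limit fell to 31.3 without pp7l-1 replicate 2 and to 27.7 without replicate 3, since fewer libraries then set it. Neither gene shared exon bases with another counted gene, and no other counted gene was found with a similar transcript for either.

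Starts that face away from each other within 200 bases were common: 786 pairs of neighbouring protein-coding genes had them, and both genes were tested in 519. In 349 of these pairs neither gene passed the threshold (edgeR, adjusted p under 0.05), in 152 pairs 1 gene did, in 6 both were higher in the pp7l-1-labelled libraries, in 6 both were lower and in 6 they moved in opposite directions. FAP3 and AT1G53530 were 1 of the 6 pairs with both genes lower, and the only pair in which both were over 8-fold lower. At least 1 gene was lower in 74 of the 519 pairs. Of all tested genes 11.3% were lower, which is a share per gene and not per pair. The pair was chosen for its counts, so its place among the pairs is a description.

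**Figure D2:**
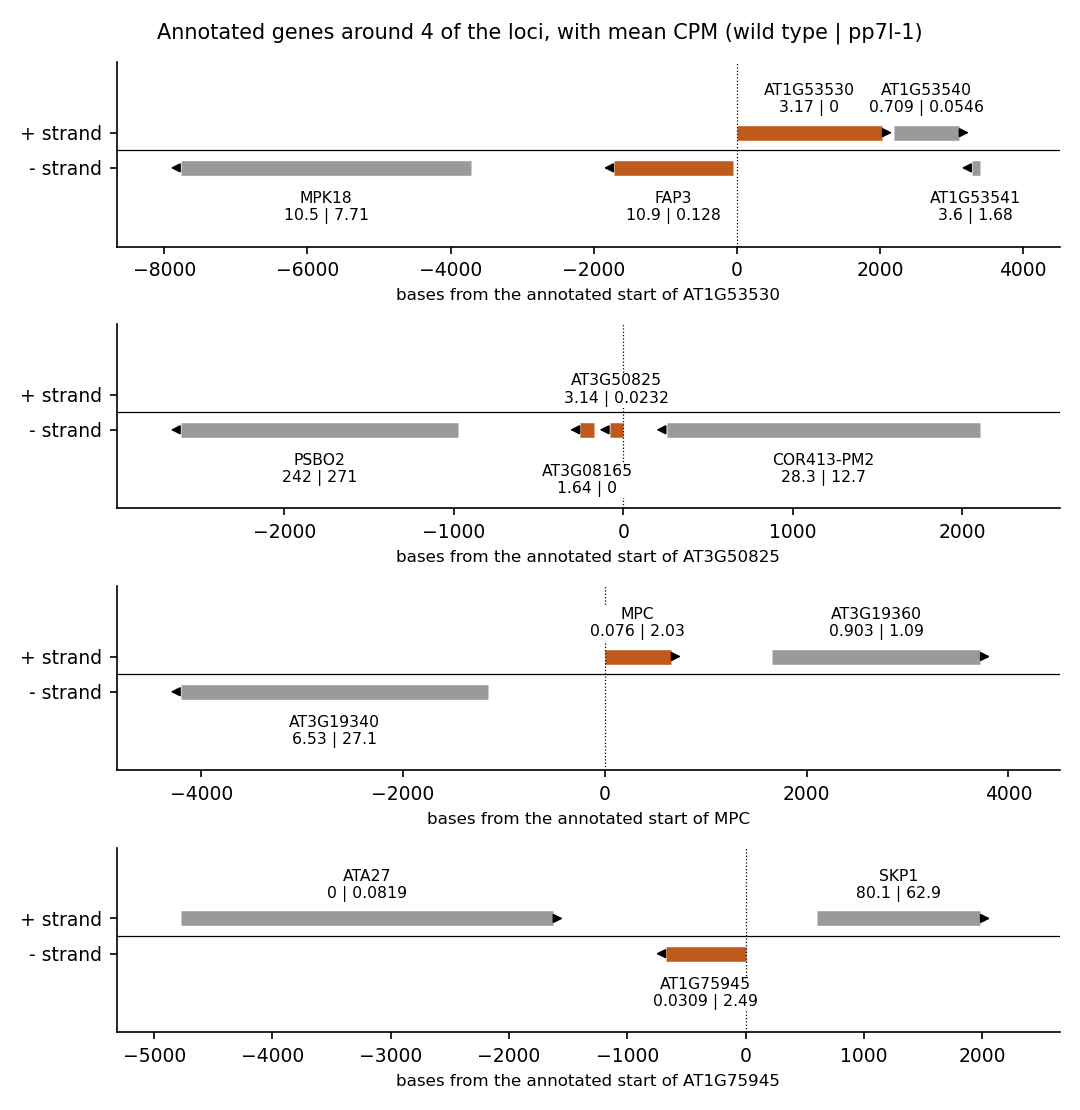
Annotated genes (bars, with arrows for the direction of transcription) around 4 of the loci, by distance in bases from the annotated start of the gene named under each panel; orange bars are genes of the set and grey bars their neighbours. The numbers are mean CPM over 3 libraries, wild type left and pp7l-1 right: FAP3 and AT1G53530 went from 10.9 and 3.17 to 0.128 and 0, while MPK18 on 1 side had 10.5 and 7.71.

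The other 4 protein-coding genes of this side gave 48 to 140 reads over the wild-type libraries. AT5G04120 (chromosome 5, 1119937 to 1121813, plus strand, 6 exons) encodes a protein like the glycolytic phosphoglycerate mutases, with phosphoserine phosphatase activity and a possible part in serine synthesis per the annotation. Its counts were 28, 17 and 18 in wild-type libraries and 0 in every library labelled pp7l-1, which made it at least 23.1-fold lower, or 15.4-fold and 13.6-fold at least without pp7l-1 replicate 2 or 3. Its exons shared 1.30% of their bases with another counted gene, GYRB2, which runs towards it and overlaps its end.

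AT3G60180 (chromosome 3, 22242500 to 22244125, minus strand, 8 exons) encodes a P-loop protein of the kind that phosphorylates UMP and CMP, the precursors of pyrimidine nucleotides. It had counts of 12, 24 and 12 in wild-type libraries and 0 in every library labelled pp7l-1, the smallest total in the higher genotype of the set. The level was at least 17.6-fold lower, and the limit fell to 11.7 and 10.4 without pp7l-1 replicate 2 or 3. A similar gene, AT3G60961, was 90.6% identical over 637 bases and had reads in both genotypes, with counts of 10, 36 and 18 against 35, 20 and 34. Reads that fit both genes equally may have been split or dropped by the authors' counting.

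AT5G37990 (chromosome 5, 15133867 to 15135169, minus strand, 3 exons) encodes a methyltransferase of the SABATH group, enzymes that methylate small acids such as salicylate and jasmonate. Its counts were 59, 44 and 37 against 0, 1 and 1, a ratio of 77.1 with an exact 95% interval of 20.9 to 643. All 3 wild-type libraries were far above the others. Its nearest copy, AT5G37970 (89.7% identical over 1085 bases), had a count of 0 in all 6 libraries.

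AT2G16005 (chromosome 2, 6959092 to 6960216, minus strand, 4 exons) encodes a protein with the lipid-binding domain named after the animal protein MD-2. Its counts were 57, 50 and 18 against 0, 0 and 2, a ratio of 68.8 (exact 95% interval 18.7 to 575). The wild-type spread was the widest among the 6 protein-coding genes read in that genotype, at 2.97 ± 1.20 CPM (SD, n = 3), and wild-type replicate 3 was the lowest library of its genotype. The ratio was 45.8 without pp7l-1 replicate 2, and the gene was at least 27.0-fold lower without replicate 3, which held both remaining reads.

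Per kilobase of exon, wild-type levels ran from FAP3 at 9.93 ± 0.903 CPM (SD, n = 3) down to AT3G60180 at 1.22 ± 0.368. Between them lay AT2G16005 at 3.63 ± 1.47, AT5G37990 at 3.20 ± 0.618, AT1G53530 at 3.13 ± 0.526 and AT5G04120 at 1.47 ± 0.417. The middle 3 did not differ from each other beyond their spread, nor did the last 2. The snoRNAs, of 81 bases each, were left out of this order.

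Of the snoRNAs, AT3G50825 gave counts of 38, 47 and 40 in wild-type libraries and of 0, 1 and 0 in the pp7l-1-labelled libraries. AT3G08165, the downstream gene, gave 12, 23 and 28 against 0, 0 and 0. The upstream gene had the higher count in every wild-type library, and each lost nearly all of its reads in the other genotype. The ratio for AT3G50825 was 138 (exact 95% interval 24.3 to 5481), and AT3G08165 was at least 23.1-fold lower. Without pp7l-1 replicate 2, which held its only read, AT3G50825 was at least 30.6-fold lower, and its ratio was 81.0 without replicate 3. The limit for AT3G08165 was 15.4 and 13.6 without these libraries.

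The snoRNA pair lay between PSBO2, which encodes a subunit of the oxygen-evolving complex of photosystem II, and COR413-PM2 (AT3G50830), which encodes a cold-regulated protein of the plasma membrane. PSBO2 (AT3G50820), 721 bases downstream of AT3G08165 on the same strand, did not pass the threshold, at 242 ± 16.6 against 271 ± 75.7 CPM. COR413-PM2, upstream on the same strand, fell from 28.3 ± 3.13 to 12.7 ± 0.773 CPM, by 1.15 ± 0.18 on the log2 scale (edgeR, adjusted p = 0.000393). It passed the threshold without each library in turn.

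A similar set of snoRNA genes stands on chromosome 5. AT5G66562, which was 91.7% identical to AT3G50825 over 84 aligned bases, gave counts of 4, 8 and 7 in wild-type libraries and of 0, 0 and 1 in the pp7l-1-labelled libraries. It was thus low in the same libraries, but at a count too small for the filter used in the main test. Its ratio was 20.9 (exact 95% interval 3.33 to 869), and in edgeR with no count filter its log2 fold change was -3.94 ± 1.11 (adjusted p = 0.00425). For the snoRNA gene SNOR111 that fit gave an adjusted p of 0.000847 and the main edgeR fit 0.0245. The value of 0.00425 can therefore not be set beside the main calls. AT5G66562 was singled out for its sequence, after the values of the members were known. AT5G66564, 92.9% identical to AT3G50825, and AT5G66567, the nearest counted copy of AT3G08165, had a count of 0 in all 6 libraries. Reads that match a chromosome 3 and a chromosome 5 copy equally well may have been dropped or assigned to either.

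Other snoRNA genes were tested. Of 285 counted snoRNA genes outside the pair, 137 had no read and 50 were tested, of which 7 were lower in the pp7l-1-labelled libraries, 0 were higher and 43 did not pass. The 14% that were lower compare with 11.3% of all tested genes. Their median log2 fold change was -0.60, against -0.01 over all tested genes, and the lowest was -1.70. That was SNOR111 (AT1G12013), with counts of 20, 24 and 30 against 6, 16 and 3 (edgeR, -1.70 ± 0.50, adjusted p = 0.0245). SNOR30 (AT5G51174) had counts of 40, 40 and 45 against 14, 22 and 25 (edgeR, -1.20 ± 0.30, adjusted p = 0.00923). None of the 7 passed the threshold in every fit that left out 1 library: SNOR30 lost it without wild-type replicate 3, and SNOR111 without that library or pp7l-1 replicate 1 or 3. The summed level of these snoRNA genes was 3732 to 6328 CPM in the wild-type libraries and 1792 to 4841 CPM in those labelled pp7l-1, and the sums of the genotypes overlapped through pp7l-1 replicate 2 alone. That library held 4841 CPM, and the other libraries labelled pp7l-1 1792 and 2001 CPM. AT5G02565, the most read of these genes, had counts of 35155, 30120 and 34943 in wild-type libraries and of 11704, 32067 and 15690 in the other genotype. Without pp7l-1 replicate 2, 23 of 54 tested snoRNA genes were lower, or 42.6% against 11.8% of all tested genes, their median log2 fold change was -1.25 and that of SNOR111 was -2.57. Leaving out pp7l-1 replicate 1 left 1 lower in edgeR and leaving out its replicate 3 left 4. Leaving out wild-type replicate 3 left 0, with 5 at an unadjusted p under 0.05, and scaling by library size alone left 2, or 4% against 4.19% of all tested genes. The pair had 1 read in pp7l-1 replicate 2 and 63 and 125 over the wild-type libraries.

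In the other direction, AT1G75945 (chromosome 1, 28515245 to 28515916, minus strand, 2 exons), annotated as an uncharacterised protein, had counts of 0, 0 and 1 in wild-type libraries and of 33, 42 and 33 in the pp7l-1-labelled libraries. The 3 libraries labelled pp7l-1 lay close together, at 2.49 ± 0.575 CPM (SD, n = 3). The ratio was 98.1 with an exact 95% interval of 17.2 to 3909. It was 63.6 and 60.3 without wild-type replicate 1 or 2, and at least 24.4 without replicate 3, which held the wild-type read. Its closest counted transcript, AT1G34418, matched over only 61 bases at 86.9% identity and had counts of 64, 75 and 59 against 23, 46 and 46.

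MPC (AT3G19350, chromosome 3, 6705474 to 6706127, plus strand, 2 exons) had counts of 1, 1 and 1 in wild-type libraries and of 21, 34 and 36 in the pp7l-1-labelled libraries. The read in each wild-type library made it the least one-sided of the 10, with 96.5% of its scaled counts in 1 genotype and a ratio of 27.5 (exact 95% interval 9.13 to 136). Its CPM was 0.0760 ± 0.0149 (SD, n = 3) in wild-type libraries and 2.03 ± 0.323 in the pp7l-1-labelled libraries. Per kilobase of exon MPC reached 3.61 ± 0.576 CPM there, and AT1G75945 5.40 ± 1.25.

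Other loci that are imprinted or silenced in vegetative tissue did not share the counts of MPC. FWA, MEA, FIS2, PHE1 and SDC together had 25 reads in wild-type libraries and 36 in the pp7l-1-labelled libraries, and none had enough to be tested. FWA had counts of 0, 0 and 1 against 0, 0 and 3, and SDC of 6, 3 and 2 against 4, 7 and 10, so the genotypes overlapped in each.

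Among the poly(A)-binding proteins, which coat the tails of messenger RNAs and to which the domain of MPC belongs, 4 were tested, 2 were higher in the pp7l-1-labelled libraries and 0 were lower, which made 50% higher against 10.6% of all tested genes. PAB2 rose from counts of 643, 816 and 557 to 1529, 1321 and 2243, by 1.19 ± 0.20 on the log2 scale (edgeR, adjusted p = 0.000719). PAB4 had 235, 514 and 245 against 593, 733 and 733 (edgeR, 0.95 ± 0.23, adjusted p = 0.00875).

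Markers of other tissues were read beside these results. Of the seed and embryo markers, 4 of 5 tested were higher in the pp7l-1-labelled libraries and 0 were lower, that is 80% higher against 10.6% of all tested genes. The summed level of the 6 listed was 5.73 to 8.16 CPM in wild-type libraries and 33.1 to 122 CPM in the pp7l-1-labelled libraries. CRU3, which encodes a cruciferin storage protein, had counts of 29, 15 and 21 against 739, 662 and 238 (edgeR, log2 fold change 4.60 ± 0.47, adjusted p = 9.4e-06). These markers thus moved in the direction of MPC and AT1G75945. Their part in the levels of both genes was not tested.

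Endosperm markers, where MPC is known to be expressed, stayed near 0, with a sum of 0.129 to 0.464 CPM in wild-type libraries and 0.164 to 0.445 CPM in the other libraries. AGL62, which marks early endosperm, had counts of 0, 1 and 0 against 0, 0 and 2. The rest of the list, FWA, FIS2 and PHE1, are imprinted loci already given above, so it is not a separate observation. The list holds no marker of late endosperm, so it cannot show whether any was left on the seedlings. Pollen markers summed to 0.186 to 0.579 and 0.164 to 0.779 CPM, and VGD1, a pollen tube gene, had a count of 0 in wild-type libraries and of 0, 1 and 1 in the other libraries. In both marker lists the genotypes overlapped.

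Root markers moved in both directions. Of 12 tested, 7 were lower in the pp7l-1-labelled libraries, 3 were higher and 2 did not pass. The shares were 58.3% lower and 25% higher, against 11.3% and 10.6% of all tested genes. TIP2;3, an aquaporin gene of the root, had counts of 214, 255 and 141 against 29, 12 and 28 (edgeR, log2 fold change -3.25 ± 0.27, adjusted p = 1.06e-06). CASP2, of the Casparian strip, had counts of 138, 100 and 63 against 19, 36 and 23 (edgeR, -2.06 ± 0.29, adjusted p = 0.000152). SHR, a regulator of the endodermis, was higher, with counts of 8, 19 and 6 against 44, 32 and 46 (edgeR, 1.77 ± 0.37, adjusted p = 0.00302). The summed level of the 16 listed, 713 to 817 CPM in wild-type libraries and 1027 to 1258 CPM in the pp7l-1-labelled libraries, was set mainly by PYK10, a glucosidase gene, with counts of 9689, 8977 and 6315 against 12251, 13357 and 21381. Of 6 tested markers of green tissue, RCA was higher and 5 did not pass, or 16.7% higher. The part of these tissues in the counts of the 8 genes read in wild-type libraries was not tested.

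To compare the genes with their neighbours on the chromosomes, the 5 counted loci on either side of each gene were taken, which made 80 loci after shared ones were counted once. Of these, 15 had no read and 40 could be tested. Of the tested loci, 4 were higher and 11 lower in the pp7l-1-labelled libraries, or 37.5%. Of all 18115 tested genes 21.9% passed the same threshold (edgeR, adjusted p under 0.05), with 10.6% higher and 11.3% lower. Among the 4 higher loci, AT1G07893 lies inside MUM4 on the opposite strand, and without AT1G07893 the share was 35.9%. With 3 loci on either side the share was 37% and with 10 it was 31.3%.

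The log2 fold changes of the tested flanking loci ran from -2.75 to 2.06 with a median of -0.32, and 0 of these 40 changed more than 8-fold. AT1G53540, the locus beside AT1G53530, was not among them. Its mean level was 0.709 ± 0.740 CPM in wild-type libraries and 0.0546 ± 0.0946 CPM in the pp7l-1-labelled libraries. Levels of the genotypes did not overlap for 22 of them, or 55%, against 38.1% of all tested genes. The number past the threshold fell to 8 without wild-type replicate 1 or 3 and to 7 without pp7l-1 replicate 1, while the number over all genes fell from 3972 to 2716, 2705 and 2671. Of the 15, 7 passed without every library in turn, 2 of them higher and 5 lower. Among the others, AT5G04090, AT2G15960, AT3G50810 and AT3G50790 were lower, with log2 fold changes from -1.80 (AT3G50810) to -0.65 (AT3G50790), and passed in 1 to 3 of the 6 fits that left out 1 library. With library size alone AT5G04090, AT2G15960 and AT3G50790 did not pass either, at -0.53, -0.44 and -0.24.

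**Figure D3:**
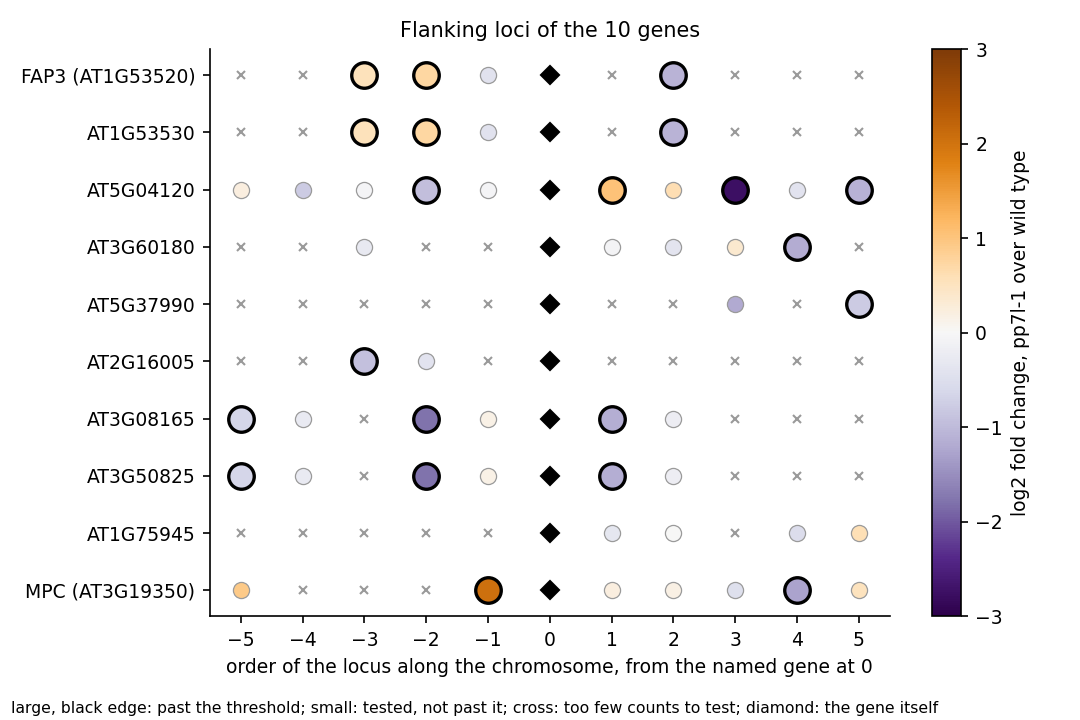
The 5 counted loci on either side of each of the 10 genes (rows), in their order along the chromosome, coloured by log2 fold change between libraries labelled pp7l-1 and wild type. Large points with a black edge passed the threshold, small points were tested and did not, crosses had too few counts and diamonds are the genes themselves; all 10 loci around AT5G04120 were tested, and 2 of 10 around AT5G37990 and around AT2G16005.

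Beside FAP3 and AT1G53530, 1 of the nearest loci did not pass the threshold and the other had few reads. MPK18, which encodes a mitogen-activated protein kinase and lies 1992 bases beyond FAP3, had 10.5 ± 2.77 against 7.71 ± 0.466 CPM and did not pass the threshold, though it did without wild-type replicate 2 (log2 fold change -0.65). AT1G53540, a gene for a small heat shock protein 173 bases beyond the end of AT1G53530, had counts of 22, 6 and 2 against 2, 0 and 0, too few to test. Of the next loci, MUM4, AT1G07893 and AT1G53541 passed the threshold with all libraries but lost it in some fits without 1 library: AT1G07893, higher, passed in 4 of the 6 such fits and AT1G53541, lower, in 2. AT1G07893, annotated as an antisense transcript, lies wholly inside MUM4, which shared 57.3% of its exon bases with other counted genes, so both calls may rest on the same reads and cannot be told apart. AT1G53541 shared 72.1% of its exon bases with AT1G07897. With library size alone AT1G53541 did not pass, at -0.70. MUM4, which encodes a rhamnose synthase of seed mucilage, had 8.90 ± 0.488 against 13.0 ± 0.881 CPM (edgeR, log2 fold change 0.55 ± 0.17, adjusted p = 0.0333), a call lost without wild-type replicate 1, 2 or 3 or pp7l-1 replicate 1, with values from 0.49 to 0.60 over all such fits.

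Around AT5G04120 all 10 flanking loci could be tested, and 1 was higher and 3 lower. GYRB2, a DNA gyrase subunit gene that ends inside the end of AT5G04120 on the opposite strand, was higher, with counts of 42, 44 and 28 against 73, 82 and 103 (edgeR, log2 fold change 1.04 ± 0.21, adjusted p = 0.00271). BHLH101, a regulator of the iron deficiency response 16596 bases away, had counts of 30, 25 and 21 against 7, 1 and 4 (edgeR, -2.75 ± 0.49, adjusted p = 0.000995). AT5G04170, a calcium-binding protein gene, fell from 51.9 ± 4.71 to 23.9 ± 6.42 CPM (edgeR, -1.12 ± 0.22, adjusted p = 0.00189). These 3 passed without each library in turn. Since the strand setting of the count is not given, reads in the bases shared by GYRB2 and AT5G04120 cannot be assigned. GYRB3, the nearest locus on the other side, had 3.06 ± 0.353 against 2.91 ± 1.05 CPM.

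Near AT3G60180, DL1E, a dynamin-like gene that ends 43 bases upstream of it on the same strand, had 11.3 ± 1.81 against 10.6 ± 0.459 CPM and did not pass. Of 5 tested loci there, only ATL4, a RING finger gene, passed, at 5.63 ± 0.379 against 2.49 ± 0.670 CPM (edgeR, log2 fold change -1.20 ± 0.24, adjusted p = 0.00283). AT5G37990 and AT2G16005 stood among weakly read loci, with 2 of 10 flanking loci tested and 4 of 10 without a read for each. On either side of these 2 genes the nearest loci had too few counts to test: AT5G37980, 781 bases from AT5G37990, had counts of 1, 2 and 2 against 0, 3 and 2, and AT2G15980, 6246 bases from AT2G16005, had 9, 10 and 4 against 6, 3 and 13.

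Around AT1G75945, 0 of 4 tested loci passed the threshold in edgeR and 0 in DESeq2, and 1 had an unadjusted p under 0.05 in edgeR. Its nearest tested neighbour, SKP1, which encodes a subunit of ubiquitin ligases and starts 602 bases away on the opposite strand, had 80.1 ± 4.90 against 62.9 ± 13.4 CPM. MPC differed. AT3G19340, annotated as an aminopeptidase and 1161 bases from MPC on the opposite strand, had counts of 89, 90 and 81 in wild-type libraries and of 371, 370 and 451 in the pp7l-1-labelled libraries (edgeR, log2 fold change 2.06 ± 0.19, adjusted p = 3.85e-06). It thus rose in the direction of MPC and was the flanking locus with the highest log2 fold change. On the other side of MPC, AT3G19360 had 0.903 ± 0.440 against 1.09 ± 0.0762 CPM and did not pass, and AT3G19390, a cysteine protease gene farther out, was lower (edgeR, -1.27 ± 0.22, adjusted p = 0.000776).

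Relatives were taken by family to ask whether other members of each moved alike. Over the families, 98 relatives were tested, with iPGAM1 and iPGAM2 counted among them: 8 passed as higher and 14 as lower in the pp7l-1-labelled libraries. The snoRNA genes were 50 of the 98, with 14% past the threshold, and the shares of the other families ran from 0% to 80%. Pooled, 22.4% of the relatives tested passed, a share weighted by the snoRNA genes and near the 21.9% of all tested genes. The number past the threshold was 12 to 39 without 1 library at a time: it was 14 when wild-type replicate 1 was left out, 12 when either wild-type replicate 3 or pp7l-1 replicate 1 was, and 39 when pp7l-1 replicate 2 was, of which 23 were snoRNA genes. Of the 22, 8 passed in every such fit.

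Of the other genes with the fold of FAP3, 5 were tested, 1 was higher and 0 were lower, or 20% higher against 10.6% of all tested genes. FAP1 (AT3G63170), which encodes another plastid fatty acid binding protein, had counts of 39, 48 and 34 in wild-type libraries and of 76, 78 and 106 in the pp7l-1-labelled libraries (edgeR, log2 fold change 0.96 ± 0.21, adjusted p = 0.00465). It therefore moved against FAP3. FAP2, the remaining gene of this name, had counts of 16, 19 and 10 against 13, 9 and 11, and TT5, the chalcone isomerase itself, 39, 51 and 21 against 45, 65 and 44, and neither passed. Of the peptidases like AT1G53530, 2 were tested and neither passed in edgeR or in DESeq2, nor had an unadjusted p under 0.05 in edgeR: AT3G08980 had counts of 28, 23 and 7 against 17, 26 and 18, and AT1G29960 had 17, 13 and 15 against 11, 10 and 18.

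Among the phosphoglycerate mutase proteins, 17 were tested, 4 were higher and 1 was lower, or 29.4% against 21.9% of all tested genes. The list also holds iPGAM1 and iPGAM2, both among the higher genes, which share the reaction but do not need the cofactor of this family. The 29.4% is therefore not a share of relatives of AT5G04120 alone. AT3G05170 had a pattern opposite to that of AT5G04120, with counts of 1, 1 and 1 in wild-type libraries and of 20, 14 and 15 in the pp7l-1-labelled libraries (edgeR, 3.77 ± 0.61 on the log2 scale, adjusted p = 0.000519). iPGAM2, a glycolytic enzyme gene, was higher by 0.84 ± 0.20 (edgeR, adjusted p = 0.00667), with counts of 369, 412 and 204 against 565, 634 and 683. AT4G38370 was higher by 1.28 ± 0.32 and AT1G09932 lower, at -1.31 ± 0.33 (edgeR, adjusted p = 0.0106 and 0.00956). Both calls were lost without wild-type replicate 1, where the log2 fold changes were 1.10 and -1.10. Of the kinases related to AT3G60180, 10 were tested and 0 passed in edgeR or in DESeq2, 0 had an unadjusted p under 0.05 in edgeR, with log2 fold changes from -0.40 to 0.42. PYR6, which encodes a UMP/CMP kinase, passed only without pp7l-1 replicate 2, at -0.57.

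Of the SABATH methyltransferases, 5 of 23 had enough reads, and 3 were lower and 0 higher, or 60% lower against 11.3% of all tested genes. NAMT1, which methylates nicotinate, had counts of 30, 20 and 10 against 2, 4 and 11 (edgeR, log2 fold change -1.95 ± 0.49, adjusted p = 0.00992). The call was lost without wild-type replicate 1, at -1.57. AT5G38020, which is also a flanking locus of AT5G37990, 30472 bases away, had counts of 73, 54 and 41 against 31, 28 and 49 (edgeR, -0.78 ± 0.26, adjusted p = 0.0391). It lost the call without wild-type replicate 1 or 3 or pp7l-1 replicate 1 or 2, with values from -0.90 to -0.59, in DESeq2 (-0.78) and with library size alone (-0.36). AT1G15125 had counts of 40, 86 and 31 against 26, 31 and 29 (edgeR, -0.96 ± 0.31, adjusted p = 0.0343), a call lost in DESeq2, with library size alone (-0.56) and when pp7l-1 replicate 1 or 3 or wild-type replicate 2 was left out, with values from -1.14 to -0.55 in the fits without 1 library.

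Among the relatives that were lower in the pp7l-1-labelled libraries, the 2 lowest log2 fold changes were those of MD-2-related genes. Of 5 tested relatives of AT2G16005, 3 were lower and 1 higher, or 60% and 20% against 11.3% and 10.6% of all tested genes. AT5G23830 fell from counts of 123, 117 and 107 to 11, 14 and 12 (edgeR, -3.36 ± 0.26, adjusted p = 5.84e-07). Its neighbour in name, AT5G23840, had counts of 22, 14 and 15 against 4, 0 and 2 (edgeR, -3.15 ± 0.62, adjusted p = 0.00208). AT3G11780 was lower by a smaller step, with counts of 446, 407 and 274 against 191, 238 and 247 (edgeR, -0.86 ± 0.18, adjusted p = 0.00374), and these 3 passed without each library in turn. With library size alone AT3G11780 did not pass, at -0.46. AT5G23820, the most abundant, had 1173, 1094 and 860 against 1475, 2092 and 1984 (edgeR, 0.69 ± 0.20, adjusted p = 0.0215), a call lost without wild-type replicate 1, 2 or 3 or pp7l-1 replicate 1, with values from 0.60 to 0.80.

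**Figure D4:**
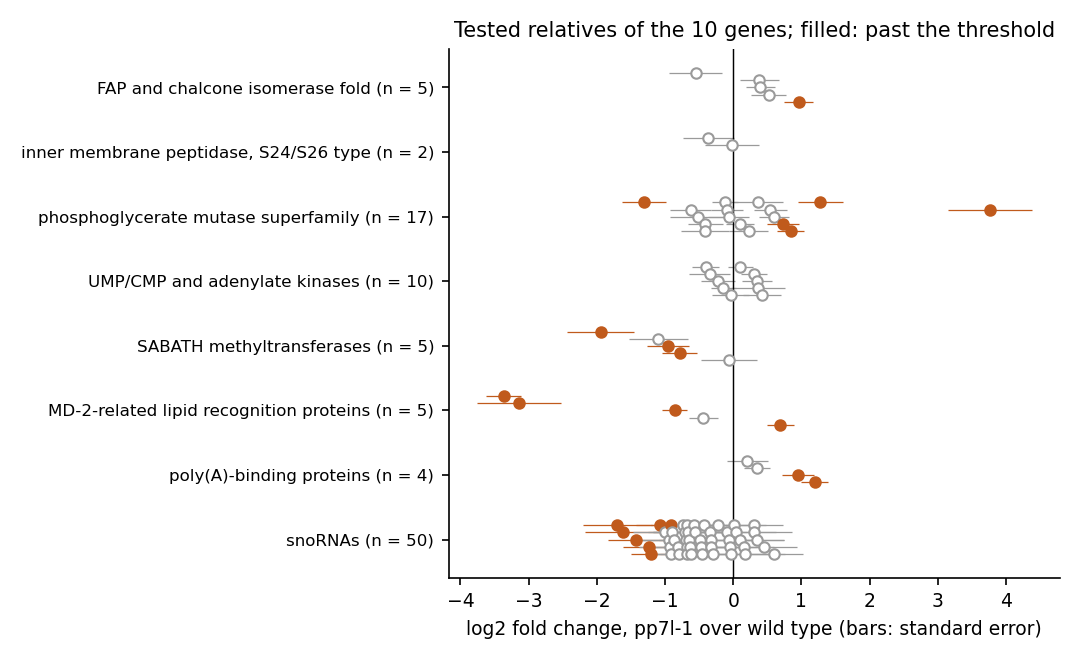
Log2 fold changes between libraries labelled pp7l-1 and wild type (points, with standard errors) of the tested relatives of the 10 genes, by family, the 10 genes themselves left out. Filled points passed the threshold: both directions occur among the phosphoglycerate mutase proteins, and the lowest values, -3.36 and -3.15, are those of 2 MD-2-related genes.

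Short motifs were looked for in the 250 bases before the annotated start of each protein-coding gene, on both strands, after the sequences of the members had been seen. The G-box CACGTG, a hexamer known as a binding site of light-regulated transcription factors, occurred before 3 of the 8 protein-coding members and before 6.49% of 27443 protein-coding genes, or 7.44% of those tested. It lay before AT5G04120, AT5G37990 and AT2G16005, all read in wild-type libraries. The 3 matches are shown with 12 bases on either side, with the motif in capitals, read towards the gene (TAIR10.1, chr5:1119755-1119784 on the plus strand, chr5:15135182-15135211 and chr2:6960382-6960411 on the minus strand).
G-box before AT5G04120: gtatcgacatgaCACGTGgttacaatgcgt
G-box before AT5G37990: ggagagatgaaaCACGTGggggtcgttgaa
G-box before AT2G16005: ttattagcataaCACGTGatttacatgatt

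The motif began 170, 30 and 183 bases before the annotated starts. The annotated model of AT5G37990 begins with its coding sequence, so its window may not be upstream of the transcript. The TATA motif TATAAA was found before 4 of the 8, against 47.35% of protein-coding genes. The telobox AAACCCTA was found before FAP3, where it lay 72 bases from the start and thus inside AT1G53530, against 4.49% of protein-coding genes. The site II motif TGGGCC was found before 0 of 8, against 13.65%.

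Placed among all genes by the same measure, the 10 were not alone. Of 17658 genes with at least 40 reads in a genotype, 31, or 0.176%, had at least 95% of their scaled counts in wild-type libraries, and 17, or 0.0963%, in the pp7l-1-labelled libraries. Both numbers include the members, which ranked by this share down to 13 of 31 (AT2G16005) and 8 of 17 (MPC). Ranked by that share, over 6 libraries, the genes outside the set most like the 8 were MLP328, AT4G22510, AT2G22760 and AT4G22513, which had 0 reads in each library labelled pp7l-1, followed by AT4G12510, AIR1, AT4G12555 and FRO5. MLP328 (AT2G01520), which encodes a protein of the major latex protein family, had counts of 103, 50 and 68 against 0, 0 and 0 and was at least 81.1-fold lower. AT2G22760, a gene for a basic helix-loop-helix protein, had 33, 7 and 12 against 0, 0 and 0. FRO5, of the ferric reductase family, had 34, 38 and 24 against 0, 0 and 2, a ratio of 52.9 (exact 95% interval 14.2 to 443).

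Some of these genes overlap others on the chromosome. AT4G22510 and AT4G22513 overlapped other counted genes over 90.7% and 60.9% of their exon bases, and AT4G12555 and AIR1 over 88.8% and 41.2%. AIR1 had counts of 79, 91 and 44 against 2, 0 and 2, and AT4G12555 had 80, 88 and 44 against 2, 0 and 2, which cannot be told apart as reads of 1 or of both genes.

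On the side of AT1G75945 and MPC, most of the genes ranked highest were read in 1 library rather than in 1 genotype. AT2G03875 had 107 reads, all in pp7l-1 replicate 1, and AT2G03865 had 258 there with 0 in the other libraries labelled pp7l-1. The 18S ribosomal RNA gene AT3G41768 had 851427 reads in that library against 340 to 2334 in the others, and AT3G06365 416230 against 290 to 3137. CYP96A3, a cytochrome P450 gene, had counts of 0, 0 and 0 in wild-type libraries and of 5, 30 and 6 in the pp7l-1-labelled libraries. AT1G75945 and MPC differed from the 4 genes of replicate 1 in that all 3 libraries labelled pp7l-1 lay above all 3 of the wild type, with counts from 33 to 42 and from 21 to 36.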

How the data were processed

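Reads of 6 libraries of total RNA were counted per gene. The authors deposited 1 table of whole-number counts per library, not normalised, for 33341 genes. The submitters' processing notes name Trimmomatic, FastQC, TopHat2 2.1.1, featureCounts and the build TAIR10. Per the labels' protocols the library kit was Illumina TruSeq. The annotation counted and the handling of strand, overlaps and reads with several matches are not given in the sources used here. Of the gene codes, 33056 were matched to the RefSeq annotation of TAIR10.1, the source of all symbols, types, coordinates and sequences.

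From the deposited counts, the 18115 genes left by edgeR's filterByExpr (minimum count 10) were tested in all 6 libraries with the quasi-likelihood test of edgeR 4.0.16 (R 4.3.3, TMM scaling, genotype as the only term, common biological coefficient of variation 0.196). P-values were adjusted over all tested genes (Benjamini-Hochberg, threshold 0.05). The fit was also run on simulated counts, which does not test the calls given here. Log2 fold changes are given ± standard error. CPM are counts per 1000000 of the scaled library, as mean ± SD over 3 libraries. Ratios of the 10 genes are pooled scaled counts of the genotypes. Where a genotype had 0 reads the ratio is a bound from below, computed with 3 counts for that genotype. The bound takes the reads of the other genotype as exact. Otherwise the ratio has an exact 95% interval. Bound and interval cover counting error only, since reads without molecular identifiers are not independent molecules. Similar transcripts were sought with blastn 2.17.0 (expect limit 1e-10).

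The members, the families, the markers and the tests were chosen with earlier results of these data known. Genes named in the text were the members, the nearest counted locus on either side of each, flanking loci past the threshold, up to 4 relatives per family past the threshold (or the 2 most abundant), and the 8 and 5 genes most one-sided in each direction. Other named genes, AT5G66562, AT5G66564, AT5G66567, SNOR30, FAP2, TT5, FWA, SDC, the similar transcripts and the markers among them, were picked with their values known. The alternatives were library size alone, RLE scaling, DESeq2 1.42.0, no count filter, at least 1 CPM in 3 libraries, other flanking windows, a replicate block and each library left out.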

Additional observations from a re-analysis of the deposited data

How the results depend on the processing

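The one-sided pattern of the 10 genes kept its direction in all 80 recomputed ratios (library size alone, RLE scaling, and each library left out), of which 79 stayed within the counting interval and 1 moved, that of FAP3 without pp7l-1 replicate 1 (355). The smallest ratio or lower bound among the 10 was 17.6, and 10.4 to 19.8 when libraries were left out. Of 501 recomputed log2 fold changes of 42 named flanking loci and relatives, 433 stayed on their side of the threshold, 66 lost it and 2 gained it. No gene past the threshold changed sign, while 18 values of 8 genes not past it did. Scaling by library size alone moved the median log2 fold change over all genes tested from -0.01 to 0.41, and then 4493 genes were higher and 759 lower, so that 85.5% of calls were higher against 48.6%. Flanking loci past the threshold then numbered 15, of which 10 were among the 15 of TMM scaling, and relatives 21, of which 14 were among the 22.

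Over the fits that left out 1 library, genes higher numbered 1274 to 2146, flanking loci past the threshold 7 to 15 and relatives 12 to 39. With 10 loci on either side, 26 flanking loci passed. Genes with at least 95% of scaled counts in 1 genotype and at least 40 reads there numbered 48, the 10 members among them. The number was 30 with at least 100 reads required, 74 with at least 20, and 12 with at least 99% of scaled counts. DESeq2 called 14 flanking loci and 19 relatives, and in it MUM4, AT5G38020, AT1G15125 and AT2G06855 lost their calls. Library size alone ended 9 calls of named genes, all of them lower. A replicate block gave 4153 genes, 15 flanking loci and 23 relatives. Deviations from the group means of same-numbered libraries correlated across genes at 0.10, -0.03 and 0.05. Those of unlike-numbered libraries correlated at -0.19 to 0.12. With 3 libraries per genotype these values cannot decide whether replicate numbers mark a shared culture. Depth sets the floor of the members: over each genotype, 3 reads correspond to 0.0673 CPM in the libraries labelled pp7l-1 and 0.0742 CPM in the wild type.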
